A study of Mus musculus with 9 samples.

Results

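Tumour cells taken from the olfactory bulb (OB) and tumour cells taken from the brainstem (BS) of mice were compared, with 3 RNA-seq libraries in each group. These are 6 of the 9 libraries of the series. The other 3, from astroglia of the C57BL/6 strain that carry p53 DN and an Nf1 shRNA, did not enter the fit. Both tumour groups have the same genotype label, Foxr2 overexpression with p53 cko, and the same mixed 129 and C57BL/6 background, so that the labelled site is what sets them apart. The OB libraries are titled OB_257, OB_287 and OB_295, and the BS libraries BS_287, BS_295 and BS_296. OB_287 shares its number with BS_287, and OB_295 shares its number with BS_295, with no label to say what a number stands for. The promoter or Cre that drives the alleles, the age of the mice, whether cells were cultured, and whether libraries came from separate animals are, for these cells, not given in the sources used here. Therefore p-values reflect only how far these samples scatter, and no label says whether that is scatter between animals. Of 14771 named genes, 9767 reached 10 normalized reads in at least 3 of the 6 libraries and were tested.

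Foxr2 is a forkhead transcription factor with little expression in the adult brain, and its activation marks a class of embryonal brain tumours. Cells of the oligodendrocyte lineage pass from precursors, which express Olig1, Olig2 and Pdgfra, to myelinating cells under the control of Sox10 and Myrf, and neural stem cells express Sox1, Sox2 and Notch targets such as Hes5. Position along the neural tube is encoded by transcription factors: the Dlx genes in the forebrain, engrailed and Zic genes in the midbrain and cerebellum, and Hox genes in the hindbrain and spinal cord. Olfactory bulb tissue belongs to the forebrain and the brainstem to the midbrain and hindbrain.

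The table held from 11300273 to 13927771 reads in the OB libraries and from 12680832 to 15282668 in the BS libraries. The deposited values, called normalized reads here, are read numbers scaled by a library's size factor. Genes with several RefSeq transcripts read low in this table, with a median row mean of 10.89 for 2 transcripts against 219.3 for 1, so a low value of such a gene does not show low expression and no level is compared between genes. In bulk RNA, fewer cells of a type and less RNA per cell cannot be told apart.

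The 6 libraries did not group by site. Across the tested genes, the mean Pearson correlation of log2(normalized reads + 1) was 0.888 within sites and 0.881 between sites, a difference of 0.00676 (two-sided exact permutation p = 0.7 over 10 splits, with 0.1 the smallest p possible). Without OB_257 the difference was -0.00877. OB_257 correlated with the other 5 libraries at only 0.810 to 0.865. BS_287 was closest to OB_287, at 0.906, whereas BS_295 and BS_296 reached 0.952. The first principal component, with 44.75% of the variance, set OB_257 (score 136) apart, and the second, with 29.97%, set BS_287 (109) apart. On the third, with 10.1%, OB_287 and OB_295 (38.6 and 40.0) lay opposite BS_295 and BS_296 (-35.8 and -29.8). OB_257 (-12.6) and BS_287 (-0.428) lay between them.

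**Figure D1:**
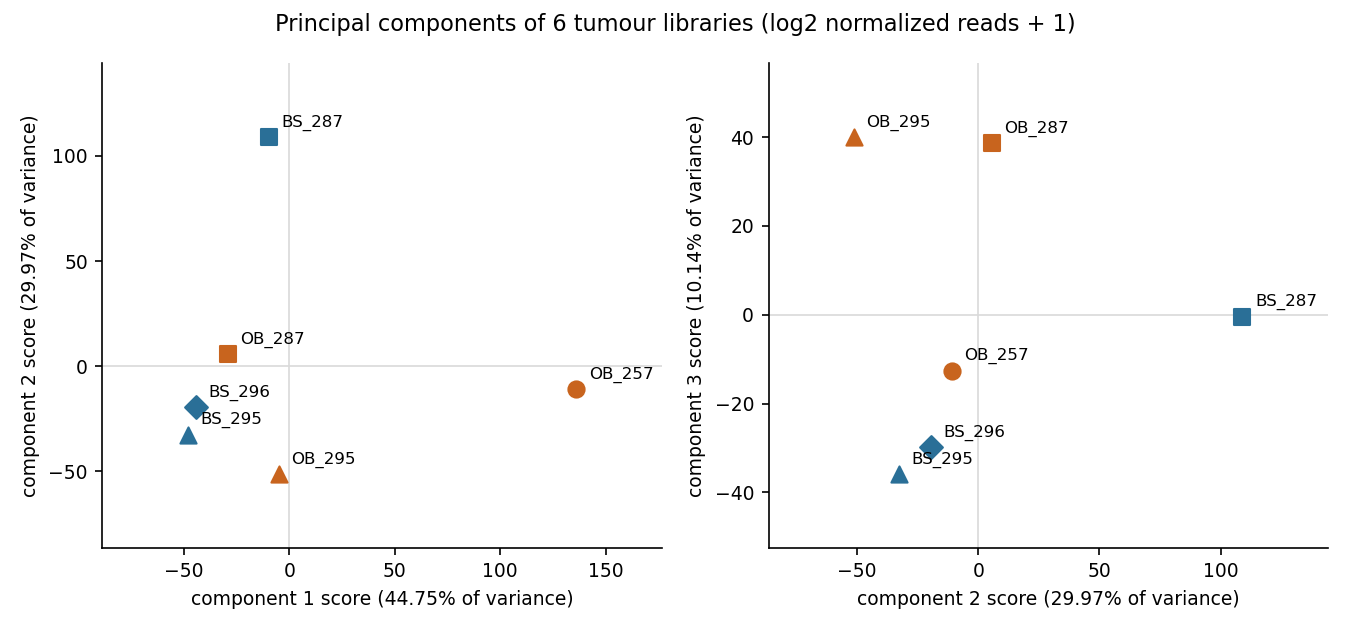
Scores of the 6 libraries on components 1 and 2 (left) and 2 and 3 (right) of log2(normalized reads + 1), in arbitrary units, OB in orange and BS in blue, with marker shapes for the numbers in the titles. OB_257 lies alone at 136 on component 1, BS_287 at 109 on component 2, and the other 4 libraries part by site on component 3.

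Between the sites, 0 genes (0.0%) passed limma at an adjusted p under 0.05, and the lowest adjusted p was 0.764. At an unadjusted p under 0.05 there were 448 genes (4.59%), 286 of them higher in OB (2.93%) and 162 higher in BS (1.66%). edgeR's quasi-likelihood test on the recovered reads also called 0 genes, with 493 at an unadjusted p under 0.05. DESeq2 on the same reads called 111 genes (1.14%), of which 84 were higher in OB (0.86%) and 27 higher in BS (0.276%). All 111 had an unadjusted p under 0.05 in edgeR, and 108 had one in limma. The groups did not overlap for 990 genes (10.1%), 531 higher in OB (5.44%) and 459 higher in BS (4.7%). The spread within a site was wide: the median SD was 0.46 in OB and 0.45 in BS on the log2 scale, the median size of the difference was 0.31, and site held 22.78% of the sum of squares. For 2734 genes (27.99%) the 95% interval of the difference lay within 1 on the log2 scale. For most genes these libraries therefore leave a 2-fold difference possible. All values below are given with that limit, and "higher" or "lower" describes these libraries.

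Foxr2, the gene of the genotype label, was read first. It had 4505, 6814 and 5969.8 normalized reads in OB_257, OB_287 and OB_295, and 12567, 7377 and 8634 in BS_287, BS_295 and BS_296. Every OB library was below every BS library, by 0.71 on the log2 scale (OB minus BS -0.71, 95% interval -1.37 to -0.04), which missed the threshold (limma adjusted p = 0.957). Trp53, the gene of p53, had 17.7, 51.4 and 31.5 in OB and 29.4, 18.1 and 35.5 in BS, with overlap and a difference of 0.20 (-1.13 to 1.52). The deposited value cannot show which part of Trp53 the cko allele removes. Nf1, a negative regulator of RAS, had 8619.7, 4184 and 4666 in OB and 6239, 5045 and 4642 in BS, again with overlap. In this and the next paragraphs, values of a site follow the order in which its libraries are named here.

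The 12 genes of smallest p that were higher in every OB library were led by Gask1b and Moxd1. Moxd1, a relative of the enzyme dopamine beta-hydroxylase, had 23467, 8673 and 9711 normalized reads in OB and 61.2, 210.2 and 569 in BS. The lowest OB library was thus far above the highest BS library, and the difference was 6.00 on the log2 scale (95% interval 4.02 to 7.99, limma adjusted p = 0.764). Gask1b, a protein of the Golgi related to kinases, had 101, 37.1 and 83.7 in OB and 2.52, 4.27 and 1.97 in BS, a difference of 4.18 (2.83 to 5.53, limma adjusted p = 0.764). Capn6, a calpain without protease activity that stabilises microtubules, was at 6613, 2313 and 8394 in OB. In BS it was at 36.1, 29.9 and 312, with BS_296 the highest of the site and a difference of 6.15 (3.81 to 8.49). Afap1l1, which binds actin filaments, had 2493, 640.5 and 2170.3 in OB and 134, 84.3 and 154 in BS, a difference of 3.64 (2.26 to 5.02).

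Kif26a, a kinesin that does not move along microtubules, differed by 3.47 on the log2 scale, with 1049, 479.6 and 272 in OB and 74.6, 41.6 and 30.5 in BS. Tmeff2, a membrane protein with follistatin domains, differed by 2.64. Peg13, an imprinted non-coding RNA expressed from the paternal allele, varied little within its sites, with 1445, 1624 and 1686 in OB and 637, 547 and 639 in BS, and differed by 1.38 (0.88 to 1.88). The repressor Nfil3 differed by 2.33, the tubulin-binding Tppp, an oligodendrocyte protein, by 1.98, and the heat shock protein Hspa12b by 1.97. Lrrc8b, a subunit of the volume-regulated anion channel, differed by 1.59, and Lgr4, a receptor of R-spondins, by 1.49. For these 10 genes after Gask1b and Moxd1 the limma adjusted p was 0.807. DESeq2 called all 12.

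Of the genes of small p that were higher in every BS library, 10 are given here. Lrrc32, the cell-surface anchor of latent TGF-beta, had 8.84, 16.2 and 13 normalized reads in OB and 626, 90.7 and 332 in BS, a difference of -4.33 on the log2 scale (95% interval -6.12 to -2.53). Sox1, a factor of neural stem cells, had 165, 547 and 240.2 in OB and 4299, 1095 and 1553 in BS, a difference of -2.79 (-4.34 to -1.25). BS_287 held the highest Sox1, as it did for Lrrc32. Sned1, a matrix protein, had 50.8, 48.5 and 129 in OB and 328, 504 and 2331 in BS, with BS_296 the highest, and differed by -3.39 (-5.32 to -1.46).

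The other genes have varied roles. Lrrc55, an accessory subunit of BK channels, differed by -4.05, and Wnk1, a kinase that sets ion transport, by -1.51. Syt13, of the synaptotagmin family, differed by -3.86, but by only -0.93 between OB_295 and BS_295. Bcl2, an inhibitor of apoptosis, was at 229.9, 379 and 342 in OB and 774, 932 and 686 in BS, a difference of -1.35 (-2.06 to -0.63). The amino acid carrier Slc43a1 differed by -2.35, the ubiquitin ligase Trim62 by -1.73, and the Cdc42 effector Cdc42ep1 by -1.75. The limma adjusted p was 0.807 for each of these 10. DESeq2 called all of them except Cdc42ep1, which had a DESeq2 adjusted p of 0.0525.

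**Figure D2:**
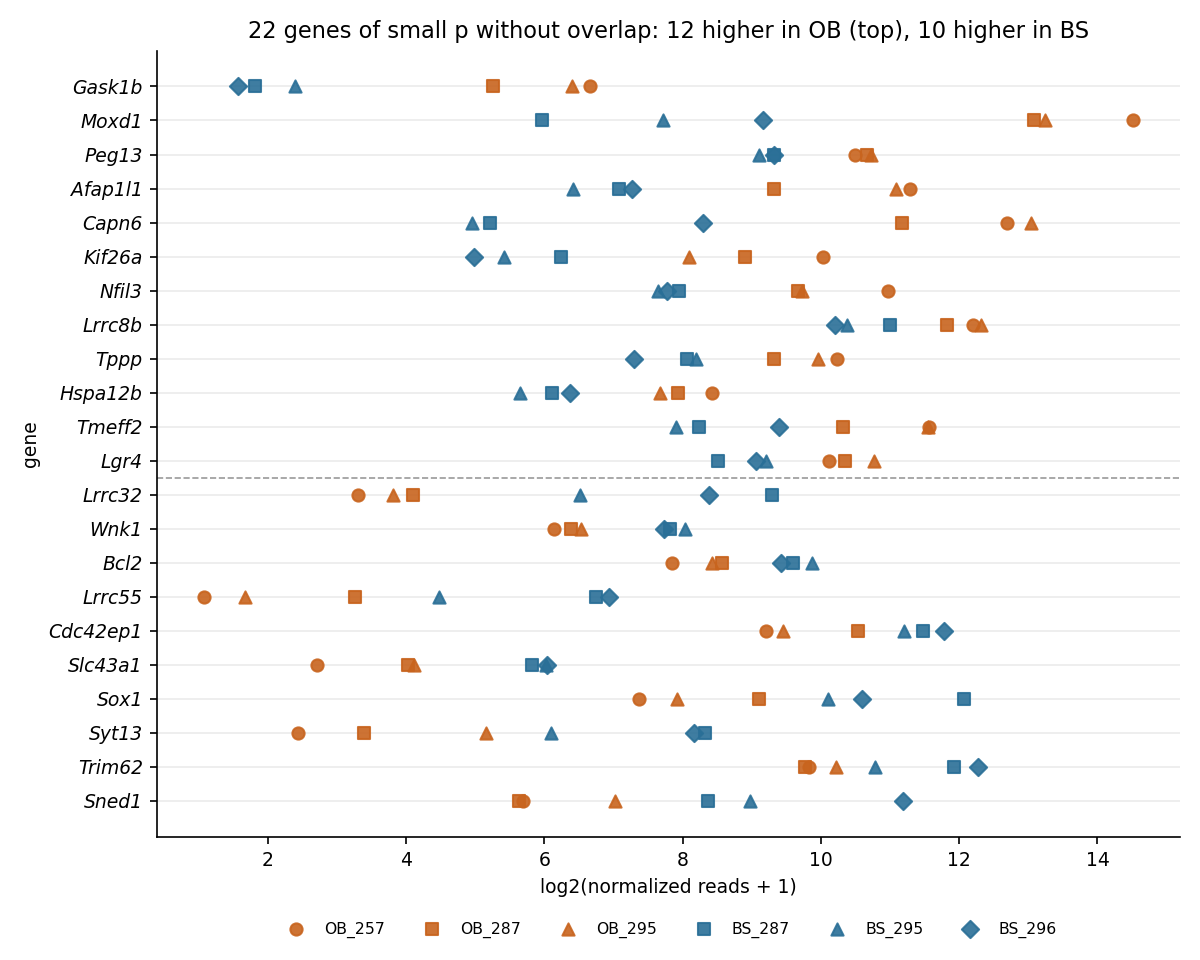
Log2(normalized reads + 1) of 22 genes in each library, 12 higher in OB above the dashed line and 10 higher in BS under it, OB in orange and BS in blue. The genes were chosen for small p and for groups that do not overlap, so the gap between colours is set by the choice; Peg13 and Wnk1 show tight libraries and Moxd1 and Capn6 wide gaps between sites.

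Genes of mature oligodendrocytes and myelin were higher in OB as a group. Of 11 tested genes of the list, 10 had the higher mean log2 value in OB (the mean used for all such counts here), and the median difference was 4.27 on the log2 scale, beside 0.00877 over all genes. At an unadjusted limma p under 0.05 there were 6 of 11 higher in OB (background 2.93%) and 0 higher in BS, and none passed after adjustment. The groups did not overlap for 4 of them, Mbp, Cnp, Cldn11 and Myrf (background 5.44%). Myrf, the transcription factor that turns on myelin genes, had 15866, 993 and 4296 normalized reads in OB and 112, 97.1 and 687 in BS, a difference of 4.37 (95% interval 1.58 to 7.17, limma adjusted p = 0.862). Cldn11, the claudin of myelin tight junctions, had 10013, 290.3 and 4243 in OB and 36.1, 39.5 and 250.2 in BS, a difference of 5.001 (1.61 to 8.39). For both genes OB_257 was the highest library, and OB_287 lay just above BS_296.

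Cnp, an enzyme of the myelin sheath, had 2093, 108 and 547 in OB and 3.35, 6.4 and 99.5 in BS, a difference of 5.08 (1.49 to 8.67). Mbp, myelin basic protein, had 732, 179 and 686 in OB and 6.71, 16 and 94.6 in BS, a difference of 4.27 (1.79 to 6.76). Mbp has 8 RefSeq transcripts, so its values read low. Tmem88b and Fa2h, a hydroxylase that makes myelin lipids, differed by 4.60 and 5.01, but OB_287 was below BS_296 for both. DESeq2 called 5 of the list, the 4 genes without overlap and Tmem88b. The list's median was 2.97 between OB_287 and BS_287 and 5.34 between OB_295 and BS_295. Without OB_257 it was 3.39, with 5 of 11 genes higher in OB at an unadjusted p under 0.05 (background 2.23%). Without both OB_257 and BS_287 it was 2.88, with 3 of 11 (background 3.48%). Of the genes of mature myelin that were not tested, Mag was at 0 in 5 libraries and at 7.74 in OB_257, and Mog was at 49.7, 4.76 and 1.09 in OB and 21.8, 2.13 and 8.87 in BS.

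Sox10, the factor that works upstream of Myrf, had the largest difference of the precursor list. It stood at 30528, 1808 and 13223 normalized reads in OB and at 3.35, 29.9 and 1511 in BS, a difference of 7.26 on the log2 scale (95% interval 2.05 to 12.47, limma adjusted p = 0.957). Within BS it ranged from a few reads in BS_287 to a level in BS_296 just below OB_287. Gpr17, a receptor of committed precursors, had 5076, 2471 and 16883 in OB and 0, 558 and 2466 in BS, so BS_287 had none and BS_296 was level with OB_287. Tnr, a matrix protein of the lineage, had 1506, 3719 and 2258 in OB and 29.4, 609 and 1107 in BS, without overlap. Several other precursor genes did not have this order. Olig2, which specifies the lineage, had 2352, 17149 and 16921 in OB and 13399, 25104 and 30963 in BS. Its neighbour Olig1 had 2289, 19039.7 and 22599.9 in OB and 18919, 33764 and 39643 in BS. Both were lowest in OB_257, the library with the most Sox10. Cspg4, the proteoglycan NG2, was lowest there too, at 98.4. Over the 15 tested precursor genes 6 had the higher mean in OB, the median was -0.10, and 1 of 15 (Sox10) had an unadjusted p under 0.05 (background 2.93%). The median was 0.614 without OB_257 and -0.624 without BS_287. Between OB_287 and BS_287, 14 of the 15 were higher in OB (median 1.61), and between OB_295 and BS_295, 9 of 15 (median 0.243). In both of these comparisons 8 were higher in OB and 0 were higher in BS.

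Other genes of Sox10-expressing glia were also highest in OB_257 and OB_295. S100b, a calcium-binding protein of glia, had 6616, 179.9 and 5555 in OB and 5.87, 87.5 and 639 in BS. Erbb3, a neuregulin receptor of oligodendrocytes and Schwann cells, had 2546, 70.4 and 1365 in OB and 2.52, 11.7 and 87.7 in BS, a difference of 5.31 (95% interval 1.32 to 9.31, limma adjusted p = 0.957), with OB_287 below BS_296. Erbb2, its partner, ran the other way without overlap, at 179, 700.4 and 538 in OB and 830.3, 1255 and 982 in BS. Of 12 ensheathing and Schwann cell markers with values, 6 were tested, and Sox10, S100b and Cnp were the 3 of them with a higher mean in OB. The other 3 tested had the higher mean in BS. The summed level of the 12 markers was 39290, 2245 and 19842 in OB and 196, 398 and 2541 in BS, in OB mostly through Sox10, S100b and Cnp. Ngfr, a receptor that marks these cells, was at 12.2, 8.56 and 5.43 in OB and 152, 4.27 and 128 in BS, and Pmp2, a lipid-binding protein of peripheral myelin, was at 839 in OB_257 and at most 7.61 in the other libraries. The part that such cells may have in the difference was not tested.

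**Figure D3:**
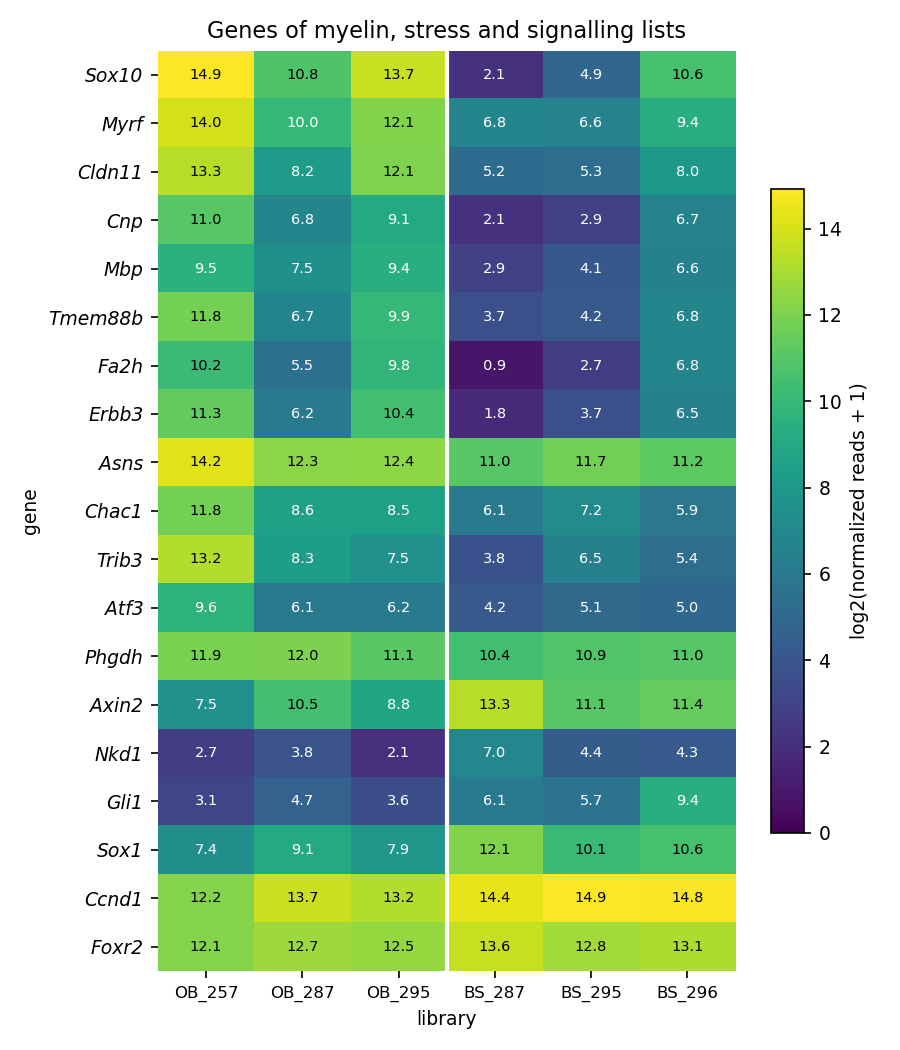
Log2(normalized reads + 1) of 19 genes (down) in each library (across, OB left and BS right of the white line), with the value printed in each cell and the colour scale from 0. Sox10 and the myelin genes are highest in OB_257 and OB_295, lowest in BS_287 and BS_295, and close to each other in OB_287 and BS_296.

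Genes of the amino acid stress response formed the second group with higher values in OB. ATF4 is the transcription factor that cells make when amino acids run short or proteins misfold, and it binds C/EBP-ATF elements in promoters of genes for amino acid synthesis and transport. Of 16 tested genes 15 had the higher mean in OB, the median difference was 1.14 on the log2 scale, and 5 had an unadjusted limma p under 0.05 (background 2.93%) and no overlap between sites (background 5.44%): Chac1, Asns, Trib3, Phgdh and Atf3. None passed after adjustment. DESeq2 gave no adjusted p for Chac1, Trib3 and Atf3, and called 0 of the other 13, with 6 of these at an unadjusted p under 0.05. Promoters of 3 of these 5 are printed because each holds a match to the letters TGATGNAA, a core of such elements. They are the 250 bases before the RefSeq start in build GRCm38.p6, which is not the build of the deposited table (mm9), and genes were matched by symbol alone. Each runs 5′ to 3′ on the strand of the gene, with the match in capitals (a match on the opposite strand reads TTNCATCA). Chac1 lies at chr2:119350992-119351241 on the plus strand with the match at -193 from the start, Asns at chr6:7693210-7693459 on the minus strand with the match at -23, and Atf3 at chr1:191183334-191183583 on the minus strand with the match at -110.
Chac1: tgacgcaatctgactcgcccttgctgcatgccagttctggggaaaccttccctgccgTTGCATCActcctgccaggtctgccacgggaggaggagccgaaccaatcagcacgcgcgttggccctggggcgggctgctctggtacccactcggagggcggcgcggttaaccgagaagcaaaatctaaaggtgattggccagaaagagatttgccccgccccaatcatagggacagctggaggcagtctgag
Asns: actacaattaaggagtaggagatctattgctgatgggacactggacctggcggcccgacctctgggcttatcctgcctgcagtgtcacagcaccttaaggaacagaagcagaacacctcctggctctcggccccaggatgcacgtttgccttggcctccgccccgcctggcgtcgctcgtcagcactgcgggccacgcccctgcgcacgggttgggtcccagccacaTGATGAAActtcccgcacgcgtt
Atf3: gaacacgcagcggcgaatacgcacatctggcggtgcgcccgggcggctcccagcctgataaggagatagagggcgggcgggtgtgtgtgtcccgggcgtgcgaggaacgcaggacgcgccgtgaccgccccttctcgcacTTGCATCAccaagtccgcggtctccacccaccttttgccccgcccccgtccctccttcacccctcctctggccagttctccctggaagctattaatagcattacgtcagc
The letters occurred in 6 of 16 windows of 15 genes of the list (37.5%), in 2.04% of 8782 windows of tested genes and in 3.45% of all 32851 windows. Slc7a11, Aars and Nupr1 held the other matches. A match is a description of these letters only.

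Chac1, which degrades glutathione, had 3551, 378 and 353 normalized reads in OB and 68.8, 143 and 59.1 in BS, a difference of 3.21 (95% interval 0.94 to 5.47, limma adjusted p = 0.957). Asns, asparagine synthetase, had 19394, 5138 and 5334 in OB and 2104, 3429 and 2316 in BS, a difference of 1.66 (0.35 to 2.97). Trib3, a pseudokinase that restrains ATF4, had 9439.8, 322 and 185 in OB and 12.6, 89.6 and 40.4 in BS, a difference of 4.48 (0.77 to 8.19). For all 3 genes OB_257 was far above the other libraries, while OB_287 and OB_295 were lower but above all BS libraries. Atf3, a factor induced by ATF4, had 786, 65.7 and 72.8 in OB and 16.8, 34.1 and 31.5 in BS. Phgdh, the first enzyme of serine synthesis, differed by 0.88, with 3865, 3971 and 2176 in OB and 1343, 1907 and 2109 in BS. Ddit4, a stress-induced inhibitor of mTOR, was the one tested gene of the list with the higher mean in BS, at 8674 in BS_287.

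The stress genes depended on single libraries. The list's median was 1.27 between OB_287 and BS_287 but -0.0486 between OB_295 and BS_295. Leaving out BS_287 left 1 of 16 genes higher in OB at an unadjusted p under 0.05 (background 3.19%), with a median of 0.935. Leaving out BS_296 left 2 (background 2.21%). Without OB_257 there were 4 (background 2.23%), with a median of 0.664, and without OB_295 there were 7 (background 2.11%). Leaving out both OB_257 and BS_287 left 3 (background 3.48%), with a median of 0.307. The summed level of the list was 113640.0 in OB_257 and between 28061 and 39294 in the other 5 libraries. Culture conditions, which can move such genes, are not stated, and their part was not tested.

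Genes of regional identity did not match the labelled sites in a simple way. Of 10 tested forebrain factors 0 had an unadjusted p under 0.05 and 8 had the higher mean in BS. Between OB_287 and BS_287, 5 of the 10 were higher in OB (median 0.224), and between OB_295 and BS_295, 4 of 10 (median -0.0702). Of 10 tested genes of the ventral forebrain and of olfactory interneurons, 8 had the higher mean in OB, with a median of 0.89 on the log2 scale and again 0 at an unadjusted p under 0.05. Their median was 1.5 between OB_287 and BS_287 and 0.955 between OB_295 and BS_295. In both of these comparisons 5 were higher in OB and 0 were higher in BS. Dlx6, a homeobox factor of forebrain interneurons, had the smallest p of these 10, with 108, 20.0 and 165 in OB and 66.3, 0 and 4.93 in BS and a difference of 3.30 (95% interval -0.54 to 7.14, limma adjusted p = 0.957). OB_287 was below BS_287 for it. Vax1, a homeobox factor that is one of the 10 forebrain factors, went against the direction of most of them, with 9.95, 75.2 and 347 in OB and 21.8, 1.07 and 3.94 in BS and a difference of 3.43 (-0.02 to 6.87, limma adjusted p = 0.957). Cdhr1, a cadherin of mitral cells in the bulb, had low values without overlap, 25.4, 20.0 and 46.7 in OB and 0, 5.33 and 13.8 in BS. Other neuron markers of the bulb overlapped between sites except Slc17a7, a glutamate transporter of cortical and bulb neurons, at 117, 16.2 and 17.4 in OB and 15.1, 6.4 and 12.8 in BS. These were 2 of 7 tested bulb and cortical neuron markers (background 5.44%). Of the 7, though, 4 had the higher mean in BS, and the median was -0.327. It was -0.502 between OB_287 and BS_287 and 1.21 between OB_295 and BS_295.

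Midbrain and hindbrain factors tended to the BS side. Of 18 tested, 14 had the higher mean in BS, the median difference was -0.72, and 2 had an unadjusted p under 0.05 (background 1.66%). Zic2, a patterning factor and one of these, had 600.1, 431 and 408 normalized reads in OB and 719.6, 685 and 1429 in BS, a difference of -0.91 (95% interval -1.79 to -0.03). En1, the engrailed gene of the midbrain-hindbrain boundary, was highest in BS_287, with 1448, 6.4 and 40.4 in BS and 0, 111 and 2.17 in OB. Within numbers the list's median was 0.19 between OB_287 and BS_287 and -0.58 between OB_295 and BS_295, so the direction was not shared. Without OB_257 it was -0.138.

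Hox genes parted single libraries and not the sites. Hoxa5, active in the hindbrain and spinal cord, had 3.32, 16.2 and 465 in OB and 0, 662 and 161 in BS, thus high in OB_295, BS_295 and BS_296 and near 0 in the other 3. Hoxa2, Hoxa3, Hoxa4 and Hoxa7 had the same 3 libraries highest, for example 14.4, 3.81 and 498 in OB and 0, 656 and 211 in BS for Hoxa3. OB_257 alone had Hoxd genes, with Hoxd4 at 259.7 and Hoxd3 at 143 against at most 1.07 elsewhere. Of 14 Hox genes with values, 5 were tested, and 0 had an unadjusted p under 0.05.

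Among stem cell genes, Sox1 and Hes5 were higher in every BS library. Hes5, a target of Notch, had 34.3, 333 and 1106 in OB and 2293, 1433 and 1225 in BS, a difference of -2.76 (95% interval -5.59 to 0.07, limma adjusted p = 0.957). Sox2, the general stem cell factor, overlapped, with 5133, 15067 and 12070.0 in OB and 9240.5, 9001 and 5768 in BS. Of 19 tested genes of this list 12 had the higher mean in BS, the median was -0.89, and 1 (Sox1) had an unadjusted p under 0.05 (background 1.66%). The direction of the median rested on single libraries. It was 0.143 without OB_257, -0.247 without BS_295, -0.455 without BS_296 and -1.48 without OB_287, and -0.524 in edgeR and -0.479 with quantile normalization. Between OB_287 and BS_287, 13 of 19 were higher in OB (median 0.652), and between OB_295 and BS_295, 7 of 19 (median -0.362). OB_257 was the lowest library for several of them. Nes, the intermediate filament nestin, had 2359.7, 54820.0 and 16299.8 in OB against 75983, 38885 and 39399 in BS, and Slc1a3, a glutamate transporter of radial glia and astrocytes, had 88.4, 15575 and 23699 against 11447, 22694 and 25665. Of the Notch receptors, Notch1 had 7873, 7623 and 7804 in OB and 9547, 9708 and 8893 in BS, without overlap and with a difference of -0.27 (-0.66 to 0.12).

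Feedback genes of the WNT pathway, which cells switch on when beta-catenin is active, were higher in BS in part. Axin2, the standard read-out of the pathway, had 185, 1413 and 439 in OB and 10152, 2149.6 and 2646 in BS, a difference of -2.99 (95% interval -5.11 to -0.87, limma adjusted p = 0.957). Nkd1, a feedback inhibitor, had 5.53, 13.3 and 3.26 in OB and 125, 20.3 and 18.7 in BS, a difference of -2.35 (-4.49 to -0.21), and Znrf3, a ligase that removes WNT receptors, had 192, 245 and 191 and 468, 249.6 and 289.7. All 3 were highest in BS_287, and they were the 3 of 14 tested genes without overlap on the BS side (background 4.7%). For Znrf3, BS_295 lay just above OB_287. Of 14 tested genes 2 had an unadjusted p under 0.05 on the BS side (background 1.66%). The median was -0.89 with all libraries and 0.191 without OB_257, and it was 0.563 between OB_287 and BS_287. Lgr5, a WNT target and receptor, overlapped, at 192, 818 and 2153 in OB and 7.55, 2098 and 1678 in BS.

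Of the Hedgehog pathway, the target and effector Gli1 was higher in BS and the inhibitor Hhip, which binds the ligand and is itself a target in many tissues, was higher in OB. Gli1 had 7.74, 24.7 and 10.9 in OB and 68.8, 50.1 and 659 in BS, a difference of -3.26 (95% interval -5.77 to -0.75, limma adjusted p = 0.957), with BS_296 far above the rest. Hhip had 5767, 705 and 831 in OB and 26, 331 and 419.7 in BS, a difference of 3.27 (0.22 to 6.32). Boc, a co-receptor, had no overlap either, at 58.6, 604 and 518 in OB and 621, 641 and 1307 in BS. Smo, which passes on the signal, overlapped, and Gli2 and Gli3 were at 0 and 2.21 in OB_257. The median of the 9 tested genes was -1.73, and -0.52 without OB_257. Without both OB_257 and BS_287 it was -0.0739. Within numbers it was -0.0384 between OB_287 and BS_287 and -0.557 between OB_295 and BS_295, so its size rested on single libraries.

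Of the D cyclins, Ccnd1 and Ccnd2 were lower in every OB library. Ccnd1, which drives entry into the cell cycle, had 4589, 13693 and 9375 in OB and 21959.8, 31025 and 28905 in BS, a difference of -1.69 (95% interval -2.68 to -0.70, limma adjusted p = 0.807). Ccnd2 was at 0, 15093 and 13308 in OB and 22507, 18074 and 16881 in BS, and was at 0 in OB_257, which allows up to 3 reads or 3.32 normalized reads (counting error only). Of 16 tested genes of D cyclins and G1 control 13 had the higher mean in BS, and 1 (Ccnd1) had an unadjusted p under 0.05 (background 1.66%). Between OB_287 and BS_287, though, 10 of the 16 were higher in OB (median 0.27), against 5 of 16 between OB_295 and BS_295 (median -0.373). Among feedback genes of the RAS-MAPK pathway, 12 of 17 tested had the higher mean in BS, with a median of -0.84 (-0.103 without OB_257). This direction was not shared by the numbers: 10 of 17 were higher in OB between OB_287 and BS_287 (median 0.27), and 3 of 17 between OB_295 and BS_295 (median -0.427). Phlda1, induced by the pathway, had no overlap, at 193, 1301 and 1053 in OB and 1835, 1345 and 2399 in BS. The phosphatase genes Dusp4, Dusp5 and Dusp6 overlapped, and Dusp6 had 475, 4958 and 4695 in OB and 1459, 6311 and 7684 in BS.

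Among growth factor receptors and their ligands the smallest p was that of Erbb3, whose values are given above. Fgfr2, a fibroblast growth factor receptor, came next and had no overlap between sites, with 202, 64.7 and 64.1 in OB and 45.3, 5.33 and 17.7 in BS, a difference of 2.44 (95% interval 0.38 to 4.50, limma adjusted p = 0.957). Egfr, the receptor of epidermal growth factor, was at 0, 5464 and 717 in OB and 7262, 5350.0 and 7695 in BS, with a difference of -5.41 (-12.47 to 1.66) and OB_257 alone at 0. Of 14 tested receptors and ligands 2 had an unadjusted p under 0.05 on the OB side (Erbb3 and Fgfr2, background 2.93%) and 1 on the BS side (Erbb2, background 1.66%). The list's median had no stable direction: it was 0.82 in limma, 0.236 with a pseudocount of 5, -0.0456 in edgeR and -0.0813 without BS_287.

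Lin28b and Igf2bp2, both oncofetal RNA-binding proteins, were higher in every OB library. Lin28b, which blocks the maturation of let-7 miRNAs, had 244, 62.8 and 46.7 in OB and 0, 3.2 and 8.87 in BS, a difference of 4.71 (95% interval 2.25 to 7.18, limma adjusted p = 0.807). Igf2bp2, which binds mRNA of growth genes and is a let-7 target, had 2388, 508 and 464 in OB and 36.1, 52.3 and 128 in BS, a difference of 3.71 (1.84 to 5.57). Neither gene overlapped between sites, DESeq2 called both, and both were highest in OB_257. Igf2bp3, a relative of Igf2bp2, overlapped, with 1955, 1616 and 726 in OB and 1086, 87.5 and 1923 in BS. Lin28b and Igf2bp2 were the 2 of 6 tested oncofetal and early embryonic genes with an unadjusted p under 0.05 (background 2.93%), without overlap (background 5.44%) and with a DESeq2 call (background 0.86%), all higher in OB. Of the 6 genes 4 had the higher mean in OB. Lin28b was below the read limit of the filter in every BS library. It was therefore tested only because every OB library reached that limit. The filter thus fixed its direction and lack of overlap in advance, and its part in these counts carries little weight. Igf2bp2 reached the limit in every library of both sites.

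Lists of basic cell functions had medians between -0.38 and 0.149, beside 0.00877 over all genes. The median difference was 0.083 for 32 cytosolic ribosomal protein genes, 0.149 for 21 genes of oxidative phosphorylation, -0.23 for 19 mitosis genes, -0.38 for 18 DNA replication genes and -0.26 for 18 genes of cholesterol and fatty acid synthesis. Of the 19 mitosis genes 14 had the higher mean in BS, of the 18 replication genes 16, and of the 18 cholesterol and fatty acid genes 15. These tallies depended on the libraries compared. Between OB_287 and BS_287, 17 of 19 mitosis genes, 9 of 18 replication genes and 14 of 18 cholesterol and fatty acid genes were higher in OB. Between OB_295 and BS_295 these counts were 0 of 19, 1 of 18 and 0 of 18. For p53 target genes, which p53 switches on, the median over 14 was 0.192, with 9 higher in OB and 0 at an unadjusted p under 0.05. Interferon response and MHC class I genes had 0 of 13 at an unadjusted p under 0.05. Their median was 0.51 in limma, 0.296 with a pseudocount of 5, 0.00176 in edgeR and -0.283 without OB_257, so it had no stable direction.

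**Figure D4:**
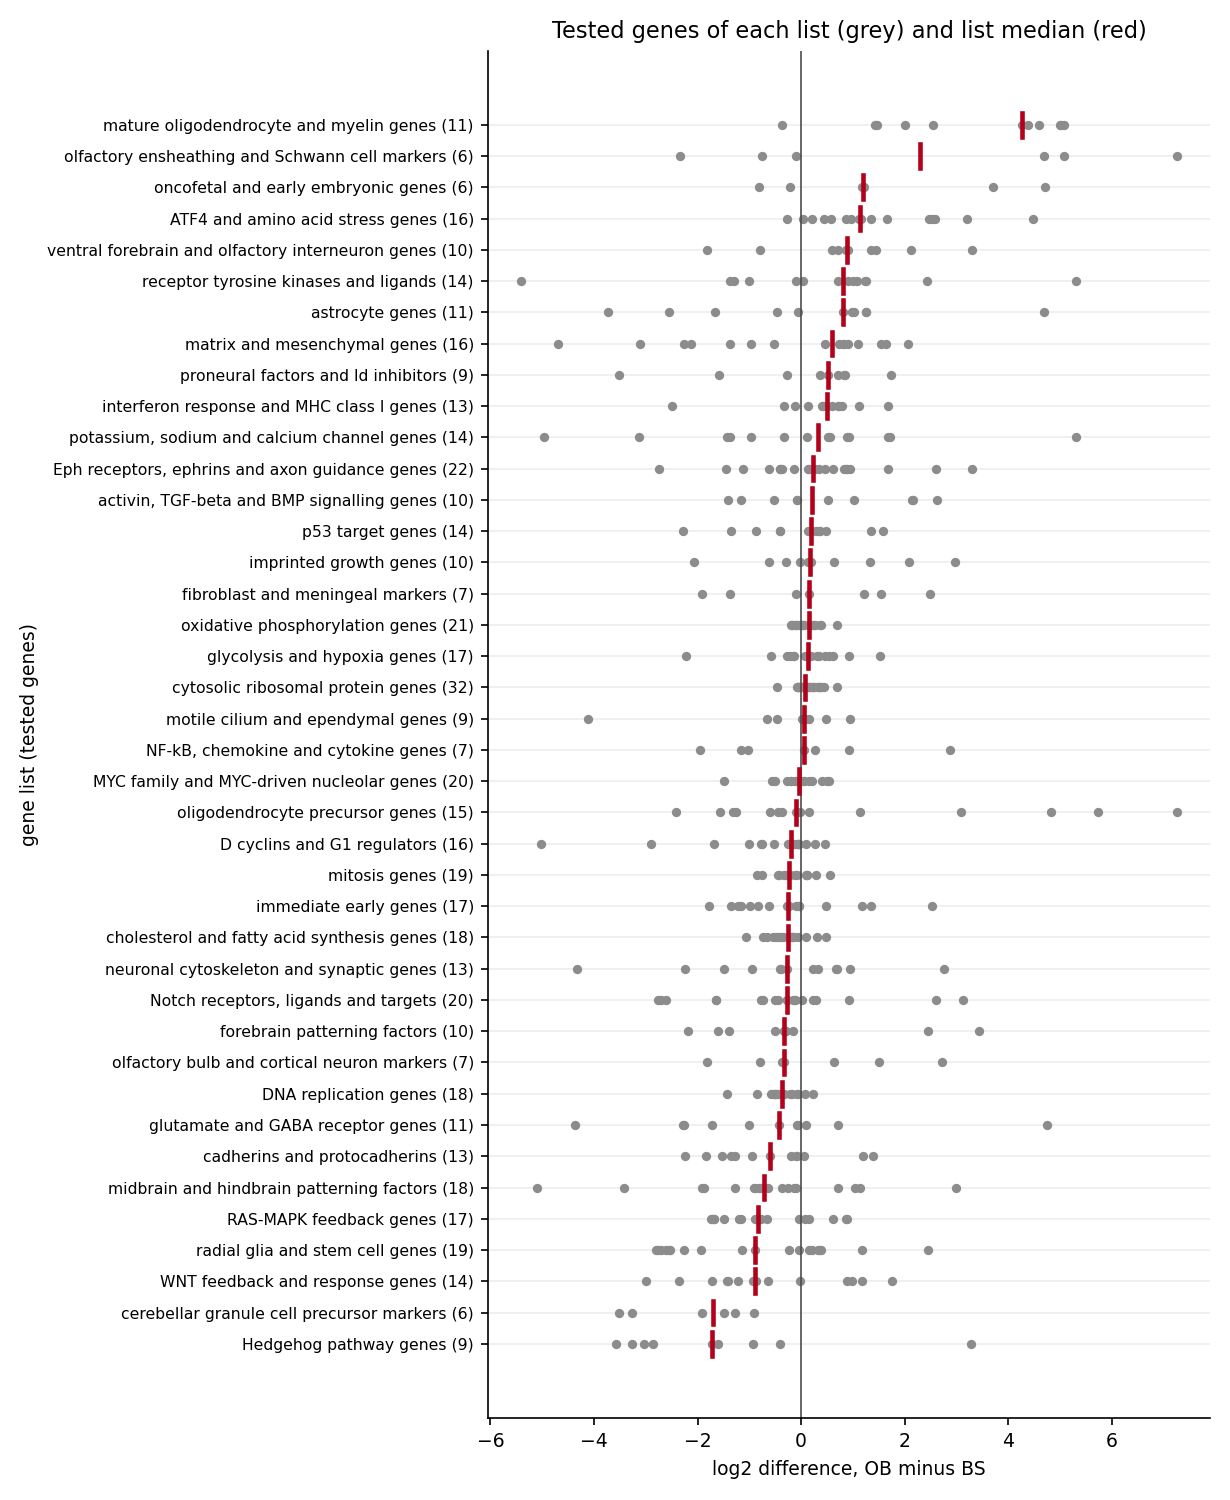
Log2 difference (OB minus BS) of every tested gene (grey) in 40 gene lists with at least 6 tested genes, ordered by their median (red bar), with the number tested in brackets. Medians run from -1.73 for Hedgehog genes to 4.27 for myelin genes, and the grey points of most lists fall on both sides of 0.

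Several defining markers of other cells that a tumour can hold were at or near 0 in both groups. Of 19 microglia and macrophage markers 8 were in the table and 4 tested. Csf1r, the receptor microglia depend on, had at most 3.81 normalized reads and Lyz2 at most 2.52, while the list summed to 487 to 758 in OB and 665 to 810.2 in BS. Of 13 endothelial markers 7 were in the table, and Cldn5, the claudin of brain vessels, was at 0 in 4 libraries and at 10.5 in OB_287. That list summed to 37.6 to 239 in OB and 60.1 to 244 in BS, with Kdr, a receptor of VEGF, or Vwf the largest in each library. Rgs5, of pericytes, had at most 2.85. The pericyte list summed to 1315 to 1679 in OB and 892 to 2819 in BS, mostly through Notch3. The fibroblast and meningeal list, of which all 14 genes had values, summed to 2842 to 4389 in OB and 3768 to 6693 in BS, Zic1 included, and 0 of 7 tested had an unadjusted p under 0.05. Of 9 erythroid markers 0 were in the table. Of 11 tested astrocyte genes 6 had the higher mean in OB, with a median of 0.812 and 0 at an unadjusted p under 0.05. The median was 0.169 without BS_287 and 0.415 in edgeR. Under a stricter filter of 50, 8 astrocyte genes remained and their median was -0.264, so the median had no stable direction. Between OB_287 and BS_287 and again between OB_295 and BS_295, 10 of these 11 were higher in OB, 9 of them in both. Gfap, the astrocyte filament, went the other way and was too low to be tested, with 0, 1.9 and 3.26 in OB and 91.4, 6.4 and 45.3 in BS. Neuronal genes overlapped between sites for 11 of 13 tested, and 2 did not (background 10.1%). Their median had no stable direction, at -0.26 in limma, 0.133 in edgeR, 0.148 in DESeq2 and 0.629 without OB_257.

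The libraries of a site were mixed in their levels of sex-linked genes. Xist, made from the inactive X chromosome in females, had 24665, 7.61 and 26470.0 normalized reads in OB and 17.6, 33933 and 24325 in BS. OB_287 was the one library with the Y-linked genes Ddx3y (666) and Kdm5d (268). BS_287 had little Xist and only 8.39 of Ddx3y and 0 of Kdm5d, so these genes did not clearly give its sex. OB_287 and BS_287 share a number and differ in these genes. The part of sex in the site differences was not tested.

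Some genes set a single library apart from the other 5. OB_257 had 27 genes at 500 or more normalized reads that were over 8-fold above each of the other 5 libraries, and BS_287 had 10, OB_295 had 7, BS_296 had 5, OB_287 had 4 and BS_295 had 0. In the other direction, 50 genes at 500 or more in each of the other libraries were over 8-fold lower in OB_257 and 12 in BS_287, with 1 in BS_295 and 0 in the remaining 3. In OB_257 the homeobox factor Alx1 reached 895, against at most 2.13 elsewhere, and Tnc, the matrix protein tenascin C, was down at 2.21 against at least 5161. In BS_287 the neuronal factor Neurod1 reached 4202 against at most 216, and the adhesion gene Cadm3 6946 against at most 167. In OB_295 Hapln1, a link protein of the neural matrix, reached 2186 against at most 19.9. In BS_296 the factor Mab21l2 reached 1013 against at most 2.13. In OB_287 Nptx2, a neuronal pentraxin, reached 3177 against at most 145.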

How the data were processed

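RNA was extracted with Sepazol and made into libraries from 1 ug of total RNA with a TruSeq Strand kit, per the labels' protocols. Per the submitters' processing notes, build mm9, HISAT2 2.1.0, Subread 1.6.2 (featureCounts) and DESeq2 1.20.0 were used, in roles that the notes do not give. The authors deposited signal values for 16260 RefSeq transcripts: reads divided by 1 size factor per library, from which whole reads were recovered for 100.0% of values within 0.05 reads. Transcripts were named from RefSeq (16198) and GENCODE (45) tables, 17 stayed unnamed, and values were added per symbol (1284 symbols had several transcripts).

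The main test was limma 3.58.1 (R 4.3.3) on log2(value + 1) with a variance trend, OB against BS in the 6 tumour libraries only, two-sided, with Benjamini-Hochberg adjustment over 9767 genes that reached 10 in at least 3 libraries, and calls needed an adjusted p under 0.05. Folds on this scale understate changes of low genes. The method was tested on simulated data. Alternatives were pseudocounts, filters, scalings, a 9-library fit, leaving out libraries, a block for the title number, and, on recovered reads, DESeq2 1.42.0 and edgeR 4.0.16.

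The genes and lists were chosen with earlier results of these data known. The text names genotype genes, the 12 genes of smallest p in each direction with a mean of at least 50 in the higher group and no overlap (clone names and sex-linked genes left out), up to 4 tested genes of smallest p per list, defining markers and extremes of lists, and genes that part 1 library from the others. Not every gene the rule picked is given, and some items are not reported here. A few relatives of named genes, such as Sox2, Smo and Pmp2, were added after their values were seen. RefSeq promoter windows were of build GRCm38.p6. Figures were drawn with matplotlib 3.10.9.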

Additional observations from a re-analysis of the deposited data

How the results depend on the processing

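The count of called genes stayed at 0 in every limma fit without a block and in edgeR. It was 111 in DESeq2, 84 higher in OB and 27 higher in BS, and the cause of the gap between the tools was not tested. Leaving out 1 library gave 0 called genes each time (0 to 0), while genes at an unadjusted p under 0.05 ranged from 299 without BS_296 to 841 without OB_287. The lowest adjusted p of any limma fit without a block was 0.0622, in the fit of all 9 libraries. Leaving out 1 library gave a gap of closeness between -0.00877 and 0.0318. It was reversed without OB_257, at -0.00877. Of the 27 single genes followed here, 24 were chosen because their groups did not overlap, which largely fixed their direction in advance. Of 563 values of the 27 genes under the alternatives, 556 kept their direction. The 7 that did not belong to Trp53 and Nf1: Trp53 was -0.167 without OB_287 and -0.0702 without BS_295 (range -0.167 to 0.577 with 1 library left out), and Nf1 was -0.344 with the replicate block, -0.253 without OB_257, -0.0231 without BS_296 (range -0.253 to 0.268), -0.131 without both OB_257 and BS_287, and -0.383 with the block in edgeR. DESeq2 put 23 single genes past its threshold. List medians moved by more than the spread used as a limit in 76 of 572 values.

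OB_287 and BS_287, and OB_295 and BS_295, share a number. The correlation of their deviations from the site means was 0.0638 and 0.318, and OB_295 reached 0.306 with BS_296 and OB_257 0.226 with BS_287. There are only 2 pairs, so the numbers are not taken to pair the samples. With the number as a replicate block limma called 1 gene, Sox10, 1 higher in OB and 0 higher in BS (difference 8.72, limma adjusted p = 0.0135). edgeR with the same block, an alternative chosen after seeing the data, called 0, with a lowest adjusted p of 0.237. The 95% interval of a difference had a median width of 1.04 to each side on the log2 scale, which limits what these libraries can show.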

Other observations

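In OB_257, 10 genes had at most 3 reads while each of the other 5 libraries had at least 500 normalized reads. Of these, 7 had 0 reads: Ccnd2, Chst7, Egfr, Hexa, Ppic, Slc9a7 and Tnfrsf1a. The other 3 were Gli3, Tmem47 and Tnc, with 2 reads each. Hexa, a subunit of a lysosomal enzyme that most cells express, had 634 and 1149 normalized reads in OB_287 and OB_295 and from 839 to 2055 in BS. Tnfrsf1a, the main receptor of tumour necrosis factor, had 625 and 1184 in OB_287 and OB_295 and from 572 to 2095 in BS. In BS_287, 3 genes met the same limits. Gjc3, a connexin of oligodendrocytes, and Gpr17 had 0 reads, and Bmp7, a bone morphogenetic protein, had 1. Gjc3 had 14685, 1142 and 8887 in OB and 5394 and 1219 in BS_295 and BS_296. No other library had a gene of this kind. A count of 0 allows up to 3 reads, which is 3.32 normalized reads in OB_257 and 2.52 in BS_287 (counting error only). The cause of these values was not tested.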
